A study of Mus musculus with 8 samples.

Results

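Marker genes of the somatic cells of the testis were examined in ATAC-seq libraries of sorted male germ cells, as a view of how open these genes were in each library. The 10 genes were Wt1, Sox9, Amh, Gata4, Cldn11 and Inha for Sertoli cells, Cyp11a1, Star and Cyp17a1 for Leydig cells, and Acta2 for peritubular myoid cells. A peak was taken for a gene when the deposited peak table lists exactly that gene symbol beside it, which it does for peaks in a gene or within 10 kb of it. This gave 139 of the 328733 peaks in the table. They lay in 43 of 87144 regions, each made by merging overlapping peaks from any library.

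In ATAC-seq a transposase inserts sequencing tags where chromatin is accessible. Germ cells were sorted for eGFP from the testes of PIWIL2-eGFP mice, in which the Piwil2 promoter drives the reporter. All mice, the 0 h animals included, had received WIN 18,446, a blocker of retinoic acid (RA) synthesis, for 7 days. Treatment began shortly after birth. Testes were taken before any RA (0 h) or 18, 48 or 120 h after RA was injected, with 2 libraries per timepoint, each from a single mouse according to the methods. The sample labels give a strain background derived from C57BL/6 and 129s4/SvJae, whereas the methods give C57BL/6 and SJL. The time course follows spermatogonia from the undifferentiated state into differentiation.

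Sertoli cells sit inside the seminiferous tubule and nurse the germ cells. Leydig cells lie between the tubules and make testosterone from cholesterol, and peritubular myoid cells wrap the tubule in a contractile layer. Germ cells do not use the specialised genes of these cells. In a bulk library, fewer cells with an open site and a less open site in each cell cannot be told apart.

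The libraries differed in how many peaks they held. The 0 h libraries had 72215 and 69089 peaks and the 6 later libraries had 24643 to 39551. The pair at 120 h differed most, with 39551 peaks in replicate 1 and 24643 in replicate 2, so that a peak absent from 120 h replicate 2 was absent from the smallest peak set. The signal at a peak's highest point, here called its summit value, is tag coverage after the authors had reduced all libraries to the same number of tags. To be counted at a timepoint meant having a peak in replicate 1 and in replicate 2. Of 10 germ cell genes, 10 had a peak within 1000 bp of the start in both 0 h libraries, beside 56.7% of all protein-coding genes, and 8 had one in both libraries of each later timepoint, beside 43.5 to 45.3%. Those without a start peak in both libraries of any later timepoint were Tdrd1, a Tudor domain gene of the piRNA pathway, and Nanos3. Tdrd1 had a start peak in 48 h replicate 1 (summit value 66) and kept peaks elsewhere in both libraries of each timepoint. Nanos3 had 4 and 5 peaks (0 h) and 1 peak in all 6 later libraries together.

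Marker genes of Sertoli and peritubular cells had peaks in both 0 h libraries, and the 3 Leydig genes among the 10 did not. Of the 10 marker genes, 7 were counted at 0 h, and 5, 6 and 8 at 18, 48 and 120 h. The 7 at 0 h were Wt1, Sox9, Amh, Gata4, Cldn11, Inha and Acta2. Among all 21900 protein-coding genes, 73.1% were counted at 0 h and 61.4%, 61.1% and 61.1% at the later timepoints in turn, beside 70% and then 50%, 60% and 80% of the marker genes. Of the 7 genes counted at 0 h, 2 were not counted at 18 h (Amh and Cldn11), 1 was not at 48 h (Inha), and 0 were missing at 120 h. Of all genes counted at 0 h, 19.3%, 19.9% and 20.1% dropped out at these timepoints. None of the 7 was without a later timepoint, which 12.9% of all genes were. Of the 8 marker genes counted at any timepoint, Cyp11a1 was the one counted later and not at 0 h, beside 0.353% of all genes.

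A count by gene hides where the peaks lie. At 48 h Cldn11 was counted because replicate 1 had a peak 3840 bp upstream and replicate 2 one 13184 bp into the gene. Amh at 120 h was likewise counted through peaks in different regions. When both libraries had to have a peak in the same region, 5, 5 and 7 marker genes were left at 18, 48 and 120 h. The same count over all genes is not given.

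By region, 27 of the 43 marker gene regions were counted at 0 h, and 7, 7 and 10 at 18, 48 and 120 h. Of the 27 regions, 21 (77.8%) were not counted at 18 h, 20 (74.1%) were not at 48 h, and 19 (70.4%) were not at 120 h. Among all 59063 regions counted at 0 h these losses were 60.1%, 63.2% and 65.7%. Another 3 regions were counted later and not at 0 h, or 10% of the 30 counted marker gene regions against 3.66% of all counted regions. No later timepoint was counted for 16 of the 27, or 59.3% against 51.7% of all regions, and 9 had no peak in any later library, or 33.3% against 31.6%. Single libraries set the later counts: 11 regions were counted at 18 h without 18 h replicate 1, 16 at 48 h without 48 h replicate 1, and 18 at 120 h without 120 h replicate 2. The counts also depended on the number of peaks. When each library was limited to as many of its highest peaks as the smallest library had, 8 marker gene regions were counted at 0 h, and 6, 7 and 8 at the later timepoints in turn. Counts of all regions under this limit are not given, so whether this pattern is particular to the marker genes was not tested.

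Because CpG islands are often open in many cell types, regions that overlapped one were also counted apart. Of 11 such marker gene regions counted at 0 h, 3 (27.3%) were still counted at 18 h, 4 (36.4%) were at 48 h and 5 (45.5%) were at 120 h, whereas among all CpG island regions 70.5%, 73.1% and 76.3% were. Of 16 marker gene regions without a CpG island, 3 were counted at each later timepoint (18.8%), beside 30.3%, 25.3% and 21.1% of all such regions. With both kinds of region pooled, median summit values at 0 h were 88 and 98 for the marker gene regions counted there. They were 88 and 94 for all regions counted there. Heights were not compared within either kind, so whether the CpG island regions differed in height between the sets was not tested. These shares rest on few regions, several of them in the same gene, and were not tested.

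**Figure D1:**
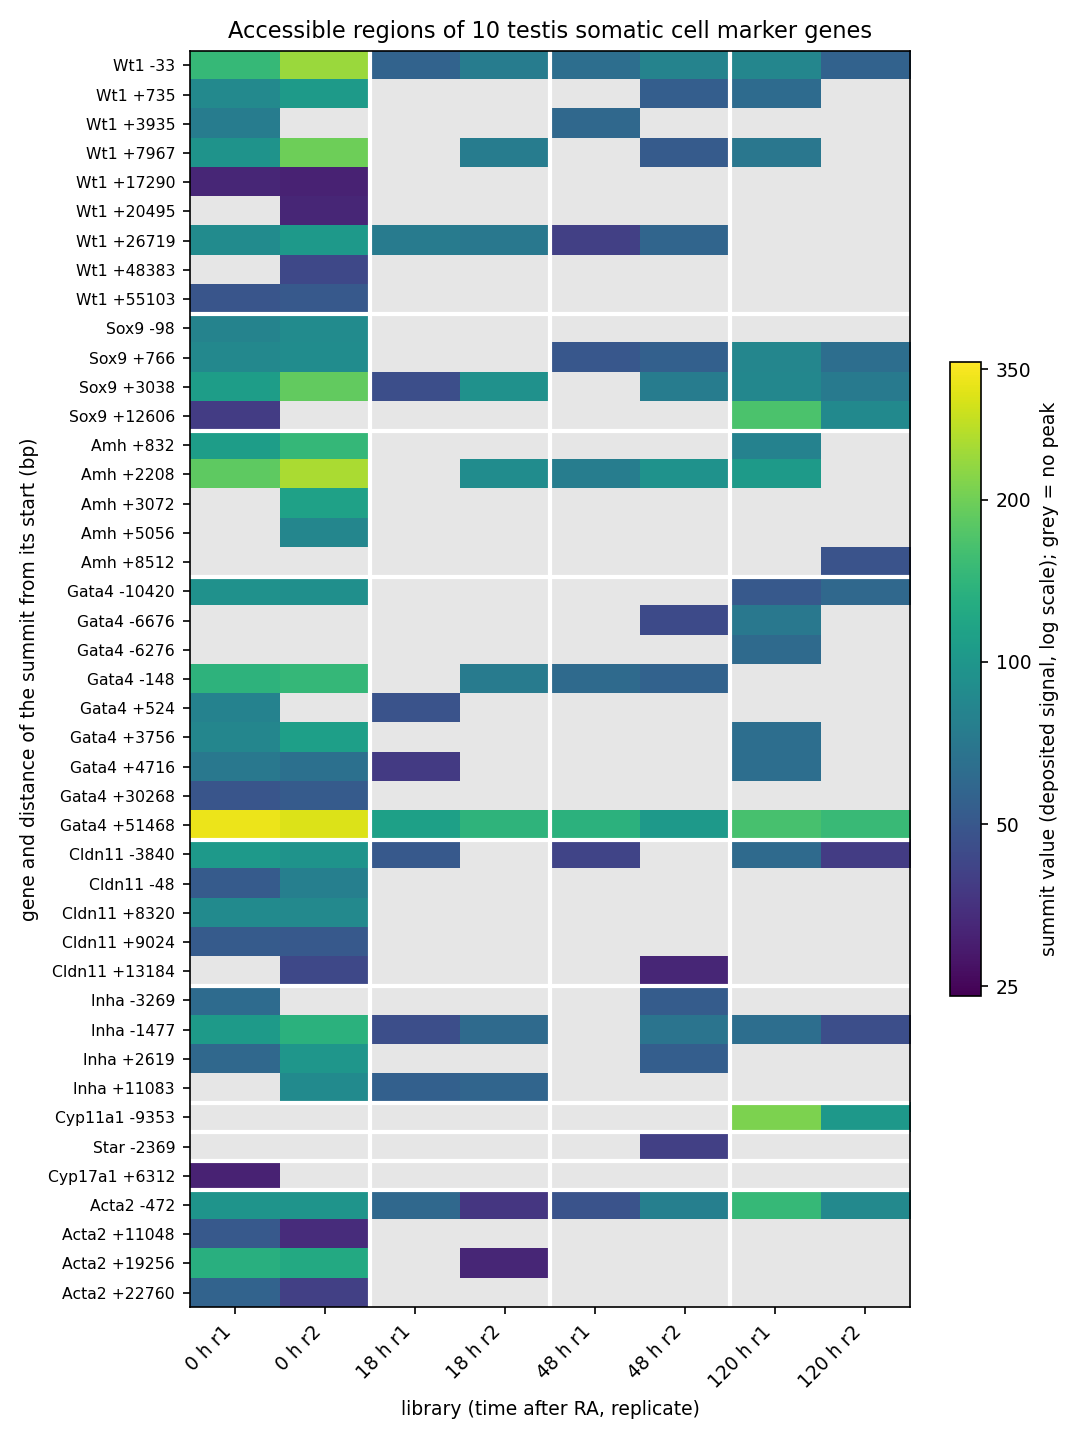
Summit value in each of the 8 libraries (columns) for the 43 regions of the 10 marker genes (rows, named by gene and distance of the highest summit from the gene's start in bp); colour is on a log scale and grey means no peak. Most rows are filled in both 0 h libraries and thin out after RA, 3 rows are filled in all 8 libraries, and Cyp11a1 -9353 is filled in both 120 h libraries and in no other.

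The number of peaks per gene was compared between the 2 libraries at 0 h and the 6 later ones. Wt1, Cldn11 and Acta2 had fewer peaks in each later library than in either 0 h library, as did 36.9% of all genes with a peak. Wt1, the zinc finger regulator that Sertoli cells keep through life, had 7 and 8 peaks (0 h), 2 and 3 (18 h), 3 and 4 (48 h), and 3 and 1 (120 h). Cldn11, a claudin of the junctions that form the blood-testis barrier, had 4 and 5 peaks (0 h), 1 and 0 (18 h), and 1 in each library at 48 and 120 h. Acta2, the smooth muscle actin of the peritubular layer, had 4 and 4 (0 h), 1 and 2 (18 h), and 1 in each later library. For these genes the groups did not overlap and the exact permutation p was 0.0714, the smallest that 2 against 6 libraries allow (two-sided, smaller tail doubled), or 0.193 after Benjamini-Hochberg adjustment over all genes. With an equal number of highest peaks per library, the mean at 0 h was below that of the later libraries for Wt1 (−1) and Cldn11 (−0.5) and above it by 0.167 for Acta2.

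Sox9, Amh, Gata4 and Inha had overlapping counts. Sox9, which directs the embryonic gonad towards Sertoli cells, had 4 and 3 peaks (0 h) and 3 and 3 again at 120 h, with 1 or 2 in the libraries between. Gata4, a transcription factor of Sertoli and Leydig cells, had 7 and 5 peaks (0 h) and 5 and 1 (120 h). Amh, the hormone that makes the Müllerian duct regress, had 2 and 4 (0 h) and 0 to 2 later. Inha, the alpha subunit of inhibin, had 4 and 3 (0 h), 2 and 3 (18 h), 0 and 3 (48 h), and 1 and 1 (120 h). Exact permutation p was 0.143 for Amh and Gata4 and 0.214 for Sox9 and Inha. It was 0.5 for Cyp17a1 and 1 for Cyp11a1 and Star, which had 0 or 1 peak in each library.

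Summed over the 10 genes there were 33 and 32 peaks (0 h), 10 and 12 (18 h), 9 and 16 (48 h), and 17 and 10 (120 h). Each later sum was below both 0 h sums. Set against the size of each library the difference was smaller. The marker genes held 4.57 and 4.63 of every 10000 peaks (0 h), 3.46 and 3.49 (18 h), 3.47 and 4.71 (48 h), and 4.30 and 4.06 (120 h), and 48 h replicate 2 lay above both 0 h libraries. With the same number of highest peaks in each library the direction turned, and the mean sum at 0 h was 2.33 peaks below that of the later libraries (−2.33), against 20.2 above it with all peaks. Values for other genes under this limit are not given.

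**Figure D2:**
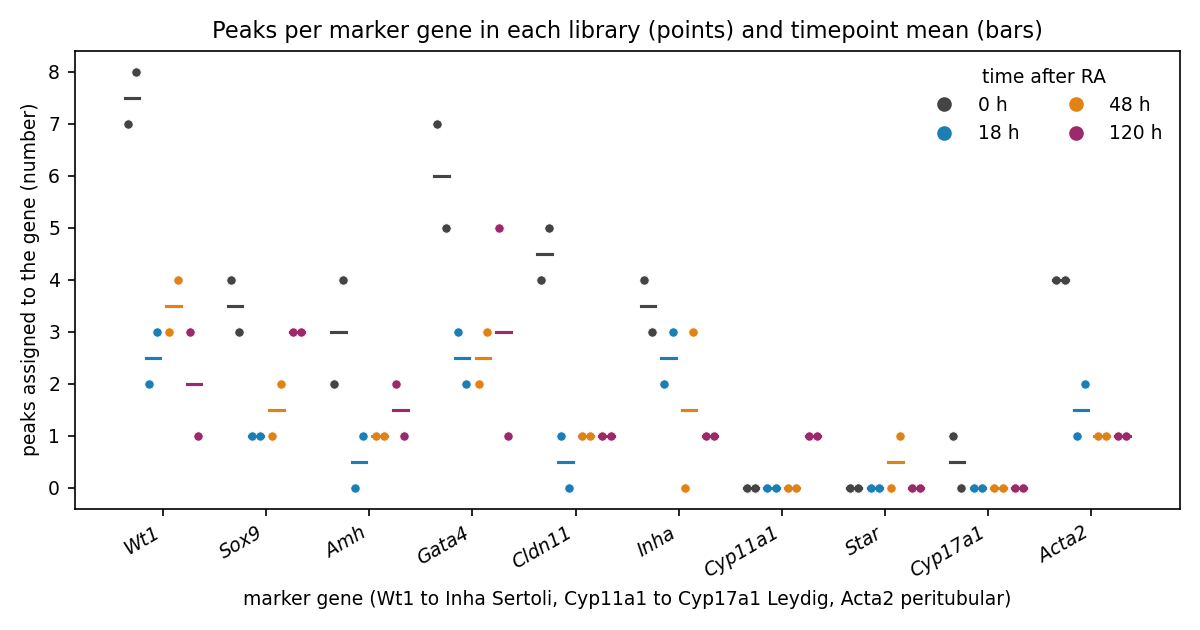
Number of peaks assigned to each of the 10 marker genes (x axis) in each library (points, coloured by time after RA), with the mean of the 2 libraries of a timepoint as a bar. Wt1, Cldn11 and Acta2 have every later point below both 0 h points, and the Leydig genes Cyp11a1, Star and Cyp17a1 have at most 1 peak in any library.

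At 0 h the starts of 5 of the 6 Sertoli genes and of Acta2 were open in both libraries. Of the 10 marker genes, 6 had a peak within 1000 bp of the start in both 0 h libraries (Wt1, Sox9, Amh, Gata4, Cldn11 and Acta2), and 3, 4 and 3 had one in both libraries of the later timepoints. At 18 h Gata4 was among them through peaks in different regions, with summit values of 48 in replicate 1 and 74 in replicate 2. Among all protein-coding genes the shares were 56.7%, 43.5%, 44.4% and 45.3%. The start peaks were low for gene starts. Where the marker genes had one, its median summit value was 97 and 121.5 in the 0 h libraries, beside 188 and 234 over all protein-coding genes with a start peak and 224.5 and 297 over the germ cell genes. Later it was 55.5 to 83 for the marker genes, over 3 to 5 genes a library, and 97 to 173 over all genes.

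The region at the start of Wt1 was one of 3 with a peak in all libraries. Its summit lay 33 bp upstream of Wt1 (chr2:105126206-105126728, mm10), on a CpG island and in an exon of the antisense RNA gene Wt1os, listed in the table as AI314831, whose start is nearer. ATAC-seq has no strand, so the start of Wt1 and that of its antisense partner share these tags. The summit value was 148 and 240 (0 h), 57 and 75 (18 h), 64 and 81 (48 h), and 83 and 56 (120 h). Both 0 h libraries were above all 6 later ones, as in 67.7% of the 15536 regions found in every library. Further into the gene, at 735 bp, the value was 86 and 105 (0 h) and 54 and 62 in 1 library each at 48 and 120 h, with no peak in the other 4. In an intron at 7967 bp it was 96 and 199 (0 h) and 75, 52 and 70 in 1 library of each later timepoint. The regions at 735 and 7967 bp were named for being among the highest counted at 0 h only. The order of their values follows from that choice.

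Another Wt1 intron region was named after its values were seen. At 26719 bp into the gene a region without a CpG island had summit values of 89 and 104 (0 h), 74 and 71 (18 h), 40 and 58 (48 h), and no peak (120 h). It was the only marker gene region counted at 0, 18 and 48 h but not at 120 h. The other 5 Wt1 regions had peaks in 1 or 2 libraries, at summit values of 31 to 75.

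At Sox9 the region nearest the start had peaks at 0 h alone, and the next one, also within 1000 bp of the start, had later peaks as well. The region with its summit 98 bp upstream of the start (chr11:112781990-112782285) had summit values of 81 and 89 (0 h) and no peak in any later library. In the coding exon at 766 bp the values were 85 and 90 (0 h), with no peak (18 h), 50 and 55 (48 h), and 83 and 64 (120 h). In another coding exon at 3038 bp, a region named after its values were seen, they were 108 and 187 (0 h), 46 and 94 (18 h), 75 in 1 library (48 h), and 84 and 73 (120 h). All of these regions overlapped a CpG island.

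Downstream of Sox9 a region was counted at 120 h alone. It lay 12606 bp from the Sox9 start (chr11:112794627-112795022), in an intron of the long non-coding RNA gene Gm11681, whose start is nearer at 4192 bp. The summit value was 39 in 1 library at 0 h and 167 and 87 (120 h), and the other 5 libraries had no peak. Both 120 h values were above that of the 0 h library with a peak. The region was named because it was counted at 120 h and not at 0 h, so its difference between these timepoints is a description and was not tested.

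At Amh and Gata4 the regions nearest the start were counted at 0 h and not at 120 h. The Amh region with its summit 832 bp into the gene, in a coding exon, had summit values of 108 and 145 (0 h), 80 in 120 h replicate 1, and no peak elsewhere. A higher Amh region at 2208 bp, on a CpG island and also listed for Plekhj1, Sf3a2 and Jsrp1, was named after its values were seen. Its values were 184 and 256 (0 h), no peak and 90 (18 h), 76 and 95 (48 h), and 105 and no peak (120 h). For Gata4 the summit 148 bp upstream of the start (chr14:63245105-63245818) had values of 138 and 146 (0 h), 74 in 1 library (18 h), 61 and 56 (48 h), and no peak (120 h). The Gata4 region at 3756 bp, in a UTR, had 83 and 111 (0 h) and 64 in 120 h replicate 1. The Amh region at 832 bp and the Gata4 region at 3756 bp were named for being among the highest marker gene regions counted at 0 h and at no later timepoint, so their order of values follows from that choice.

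The region listed for Gata4 with peaks in all libraries belongs more closely to another gene. It lay 51468 bp downstream of the Gata4 start and 267 bp upstream of the start of Neil2, a DNA glycosylase gene, in a Neil2 intron of the GENCODE annotation (chr14:63193139-63194373). Its values were 331 and 313 (0 h), 112 and 140 (18 h), 137 and 104 (48 h), and 163 and 150 (120 h), the highest of the 43 regions in both 0 h libraries. Without this region Gata4 had no region counted at 18 h. Of the 43 regions, 22 were listed with another gene as well, and 8 lay nearer to another gene's start. The shares among all regions are not given.

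The start of Cldn11 had a peak in the 0 h libraries and in no other. Its region (chr3:31149492-31150259), with the summit 48 bp upstream of the start, had summit values of 52 and 77. The lowest summit value of any peak was 24 or 25 in each library. Over regions found in every library, the median log2 change from 0 h was −1.23 (18 h) and −1.36 (48 h). Whether a weaker signal remained at the Cldn11 start was not measured. Intron regions at 8320 and 9024 bp, named after their values were seen, had 88 and 86 and 52 and 51, and neither had a later peak. A region 3840 bp upstream, also named after its values were seen, had 104 and 96 (0 h), 51 and 42 in 1 library each at 18 and 48 h, and 61 and 39 (120 h). Inha had no region with its highest summit within 1000 bp of the start. Its widest region reached from Obsl1 towards Inha, with the summit 1477 bp upstream of Inha and 852 bp into Obsl1, and had 105 and 136 (0 h), 46 and 61 (18 h), 68 in 1 library (48 h), and 64 and 46 (120 h). Peaks of this region lay within 1000 bp of the Inha start in 3 libraries. A region 11083 bp from the Inha start, nearer to Stk11ip, was counted at 18 h and not at 0 h, with 88 in 0 h replicate 2 and 55 and 58 (18 h).

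The Cldn11 promoter is shown because its CpG-rich start had a peak at 0 h and none later. RefSeq promoter sequences, 250 bases before to 50 after a start (GRCm38.p6), were matched for 4 of the 10 genes, Cldn11, Inha, Cyp11a1 and Acta2, and not for Wt1, Sox9, Amh, Gata4, Star and Cyp17a1. The Cldn11 promoter (chr3:31149670-31149969, plus strand) had a GC content of 66.3% and 24 CpG sites, an observed-to-expected CpG ratio of 0.73, beside medians of 52.7% and 0.384 over 32851 promoters. The window of the Sox9 region counted at 120 h (chr11:112794667-112794966, plus strand) is shown beside it and had a GC content of 49.3% and 2 CpG sites. Both run 5′ to 3′, and capitals mark CpG sites.
Cldn11 promoter: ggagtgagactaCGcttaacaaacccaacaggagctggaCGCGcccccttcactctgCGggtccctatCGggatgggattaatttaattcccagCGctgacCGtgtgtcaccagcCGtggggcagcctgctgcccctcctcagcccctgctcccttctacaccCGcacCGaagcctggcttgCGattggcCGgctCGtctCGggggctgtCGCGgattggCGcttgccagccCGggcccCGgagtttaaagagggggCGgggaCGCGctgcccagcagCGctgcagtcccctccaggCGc
Sox9 +12606 window: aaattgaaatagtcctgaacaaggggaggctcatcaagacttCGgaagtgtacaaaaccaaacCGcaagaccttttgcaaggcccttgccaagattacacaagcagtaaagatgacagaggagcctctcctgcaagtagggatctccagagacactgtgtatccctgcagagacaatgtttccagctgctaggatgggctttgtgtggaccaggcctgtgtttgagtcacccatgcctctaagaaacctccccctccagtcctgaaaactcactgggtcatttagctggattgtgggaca

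The 3 Leydig marker genes were nearly without peaks. Cyp11a1 cuts the side chain of cholesterol in the first step of steroid synthesis, Star carries cholesterol into the mitochondrion for that step, and Cyp17a1 acts on the way to androgens. None of them had a peak within 1000 bp of the start in any library, and 8802 of all 21900 protein-coding genes had none either. Star had a single peak, 2369 bp upstream of the start in 48 h replicate 2 with a summit value of 40, and Cyp17a1 a single peak, 6312 bp from the start in 0 h replicate 1 with a value of 31. Neither was counted at any timepoint.

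Cyp11a1 was counted at 120 h and at no other timepoint, as were 39 of all 20673 counted genes (0.189%). The peak lay 9353 bp upstream of the start used in the table (chr9:58005477-58005996), away from any CpG island, with summit values of 212 and 102 (120 h) and no peak in the other 6 libraries. Of all regions counted at any timepoint, 2.49% were counted at 120 h alone, and of the 30 counted marker gene regions 2 were, the Sox9 and Cyp11a1 regions. Neither is counted when peaks are limited to the gene and 1000 bp upstream of it. In 120 h replicate 1 the Cyp11a1 value was the highest of any marker gene region. This region too was named because it was counted at 120 h and not at 0 h, and the difference was not tested.

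A second start of Cyp11a1 was open throughout. RefSeq annotates a longer Cyp11a1 transcript that begins 16993 bp upstream of the start in the table, and GENCODE vM21 has the non-coding gene Gm17322 there, with the 120 h peak in one of its exons. Peaks at that upstream start (chr9:57997439-57998706) carry no gene in the deposited table, so they are outside the 43 regions, and the region was looked at after the values were seen. Its summit value was 322 and 354 (0 h), 111 and 121 (18 h), 84 and 128 (48 h), and 122 and 90 (120 h). Both 0 h libraries were above every later library, as in 67.7% of regions. The log2 change from 0 h was −1.54 (18 h), −1.70 (48 h) and −1.69 at 120 h (SE 0.37, adjusted p = 0.000215, 2.69e-05 and 4.96e-05, limma). After each library was centred on its median the changes were −0.28, −0.31 and −0.80, of which that at 120 h passed (adjusted p = 0.62, 0.466 and 0.0111). Whether either annotation is transcribed in these cells was not measured.

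These Cyp11a1 sequences are shown because they part the 3 sites by their peaks: the table's start without a peak, the upstream start with peaks in all 8 libraries, and the region counted at 120 h. The start promoter (chr9:58014702-58015001) had a GC content of 51.0% and 1 CpG site, and 6.55% of all promoters had a lower CpG ratio. The upstream promoter (chr9:57997774-57998073) had 58.3% and 7 CpG sites, and the window at the 120 h summit (chr9:58005515-58005814) had 46.7% and 3 CpG sites. The motif AGGTCA, a core site of many nuclear receptors, was found at base 223 of the start promoter and in neither of the other sequences. It occurs on either strand in 16.3% of all promoters and in 15.7% of windows of the same length around all summits. The Inha promoter examined was that of a RefSeq start 532 bp downstream of the Inha start in the table. It held no peak and also had 1 match, at base 182. CAAGGTCA, which contains AGGTCA and is a longer form bound by NR5A1, had no match in any sequence examined and occurs in 1.56% of promoters. Only these exact forms were searched, and near forms were not counted. Whether these sequences hold a site for NR5A1 was therefore not tested. All sequences shown here are on the plus strand, 5′ to 3′, with CpG sites in capitals.
Cyp11a1 start promoter: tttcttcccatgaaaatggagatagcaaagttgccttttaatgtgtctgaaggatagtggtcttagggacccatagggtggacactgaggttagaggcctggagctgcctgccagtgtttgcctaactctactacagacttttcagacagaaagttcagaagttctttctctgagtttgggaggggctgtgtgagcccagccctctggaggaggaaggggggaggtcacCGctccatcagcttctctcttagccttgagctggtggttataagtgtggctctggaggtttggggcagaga
Cyp11a1 upstream promoter: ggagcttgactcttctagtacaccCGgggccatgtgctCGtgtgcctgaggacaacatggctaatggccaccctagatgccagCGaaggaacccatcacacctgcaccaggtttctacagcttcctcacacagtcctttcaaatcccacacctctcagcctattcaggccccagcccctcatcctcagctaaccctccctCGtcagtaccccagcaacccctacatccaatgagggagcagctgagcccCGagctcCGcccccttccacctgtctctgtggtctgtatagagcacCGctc
Cyp11a1 -9353 window: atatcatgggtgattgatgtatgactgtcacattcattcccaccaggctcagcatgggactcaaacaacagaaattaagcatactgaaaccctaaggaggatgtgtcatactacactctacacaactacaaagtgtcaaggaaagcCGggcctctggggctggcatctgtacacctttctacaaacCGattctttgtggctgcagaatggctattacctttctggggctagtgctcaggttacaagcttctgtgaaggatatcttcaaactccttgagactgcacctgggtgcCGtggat

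Acta2 kept its start peak in all libraries. The region (chr19:34255312-34256027) had its summit 472 bp upstream of the start in the table and overlapped no CpG island. Its summit value was 97 and 98 (0 h), 60 and 37 (18 h), 48 and 77 (48 h), and 147 and 86 (120 h). All 4 libraries at 18 and 48 h were below both 0 h libraries, and the 120 h libraries lay on either side of them. A region 19256 bp downstream of the start, in an intron of Stambpl1, had 132 and 124 (0 h), 32 in 18 h replicate 2 and no peak elsewhere. It was named for being among the highest counted at 0 h only, so its order of values follows from that choice. The remaining regions, at 11048 and 22760 bp, had peaks at 0 h alone, with values of 51 and 34 and of 57 and 40.

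The Acta2 promoter is shown as the start that kept a peak in all 8 libraries without a CpG island. It runs on the minus strand (chr19:34255324-34255623), overlaps the region above, and had a GC content of 54.7%, 6 CpG sites in capitals and an observed-to-expected ratio of 0.27. A strict CArG box, the site of serum response factor, was searched as CC, 6 bases of A or T, and GG. It was not found in this window and occurs in 1.63% of promoters. The window does hold ccctatatgg and ccttgtttgg, which each differ from that pattern by a single base. Such near matches were not searched for in other promoters. A few further motifs were searched on both strands and found in none of the 7 promoters and windows examined. They were AGATAA for GATA factors, which occurs in 11.2% of all promoters, the SOX motif AACAAT, in 10.7%, and the TATA box as TATAAA, in 13.6%. Only these exact forms were searched, so near forms such as tatataa in the Acta2 promoter were not counted.
Acta2 promoter: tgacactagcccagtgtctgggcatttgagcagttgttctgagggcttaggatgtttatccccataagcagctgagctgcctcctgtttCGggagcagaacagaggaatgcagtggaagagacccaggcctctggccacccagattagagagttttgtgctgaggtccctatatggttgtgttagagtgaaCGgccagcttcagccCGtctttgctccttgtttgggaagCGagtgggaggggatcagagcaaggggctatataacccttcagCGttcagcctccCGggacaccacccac

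**Figure D3:**
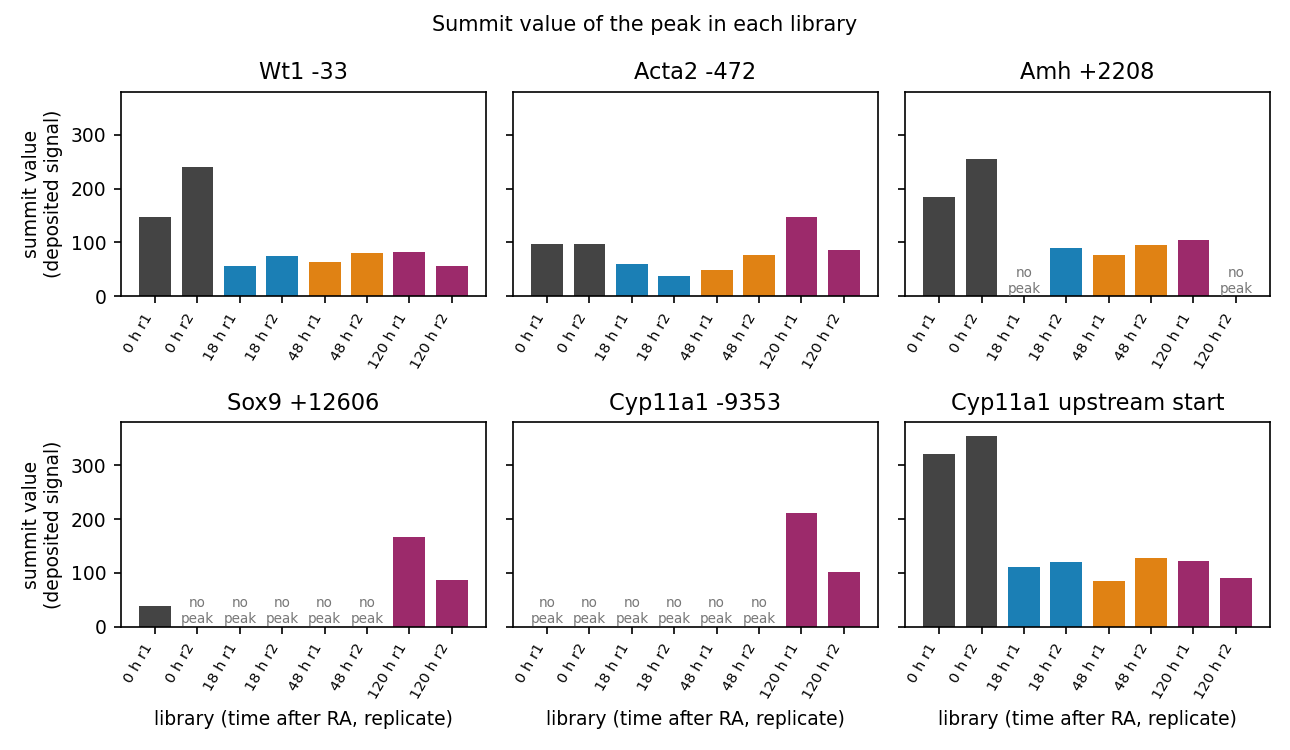
Summit value (y axis, tag coverage on the deposited scale) in each library (x axis) for 5 marker gene regions and the upstream start of Cyp11a1, each bar 1 library, with libraries without a peak marked. Wt1 -33, Amh +2208 and the upstream Cyp11a1 start are highest at 0 h, Acta2 -472 reaches 147 in a 120 h library, and Cyp11a1 -9353 appears at 120 h with 212 and 102.

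The limma comparison of heights took 15536 regions, those found in every library, and 3 of the 43 marker gene regions were among them. On the deposited scale Wt1 -33 and the Gata4 region near Neil2 fell at all later timepoints, and Acta2 -472 fell at 18 h. The log2 change of Wt1 was −1.53 (18 h), −1.39 (48 h) and −1.47 at 120 h (SE 0.37, adjusted p = 0.000241, 0.0004 and 0.000449), so that its height at 18 h was 0.347 of that at 0 h. The Gata4 region changed by −1.36, −1.43 and −1.04 (adjusted p = 0.000745, 0.000281 and 0.0143). Acta2 changed by −1.05, −0.68 and 0.21 (adjusted p = 0.00652, 0.0705 and 0.672). Of all 15536 regions, 92.3% (18 h), 93.3% (48 h) and 44.8% (120 h) were lower and 0.296%, 0.328% and 0.882% higher, with median log2 changes of −1.23, −1.36 and −0.75, and at 18 and 48 h the changes of Wt1 and the Gata4 region lay within 1 SE of these medians. On this scale the call of Wt1 at 120 h was lost without 0 h replicate 2 (adjusted p = 0.069), that of the Gata4 region at 120 h without 0 h replicate 1 or 2 (0.0812 and 0.0797), and that of Acta2 at 18 h without 0 h replicate 2 or 18 h replicate 2 (0.0514 and 0.143).

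With every library centred on its own median, the median change over all regions became 0.03, 0.03 and 0.14. Wt1 then changed by −0.27 (18 h), 0.00 (48 h) and −0.58 (120 h), and fell at 120 h alone (SE 0.21, adjusted p = 0.637, 0.994 and 0.0415), as did 15.8% of all regions. The Gata4 region changed by −0.10, −0.04 and −0.15 and passed at no timepoint. Of all regions, 0.225% were lower and 1.25% higher at 18 h, and 1.51% lower and 3.26% higher at 48 h, after centring. Acta2 changed by 0.21, 0.71 and 1.10 and rose at 120 h (SE 0.29, adjusted p = 0.824, 0.197 and 0.0115), as did 23.0% of all regions. With single libraries left out, the centred call of Acta2 was lost without 0 h replicate 2 (0.97, adjusted p = 0.0509), and that of Wt1 held without 0 h replicate 1 and was lost without any other library (adjusted p = 0.0553 to 0.285). The direction of Acta2 at 18 and 48 h turned with the centring, and at 18 h it turned back without 18 h replicate 1 (−0.31). Between 48 and 120 h no marker gene region passed, where 0.180% of all regions were lower and 23.7% higher on the deposited scale, and 7.45% lower and 9.47% higher after centring. Wt1 changed by −0.08 and Acta2 by 0.89 on the deposited scale (adjusted p = 0.9 and 0.0621) and by −0.58 and 0.38 after centring (adjusted p = 0.0654 and 0.349).

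**Figure D4:**
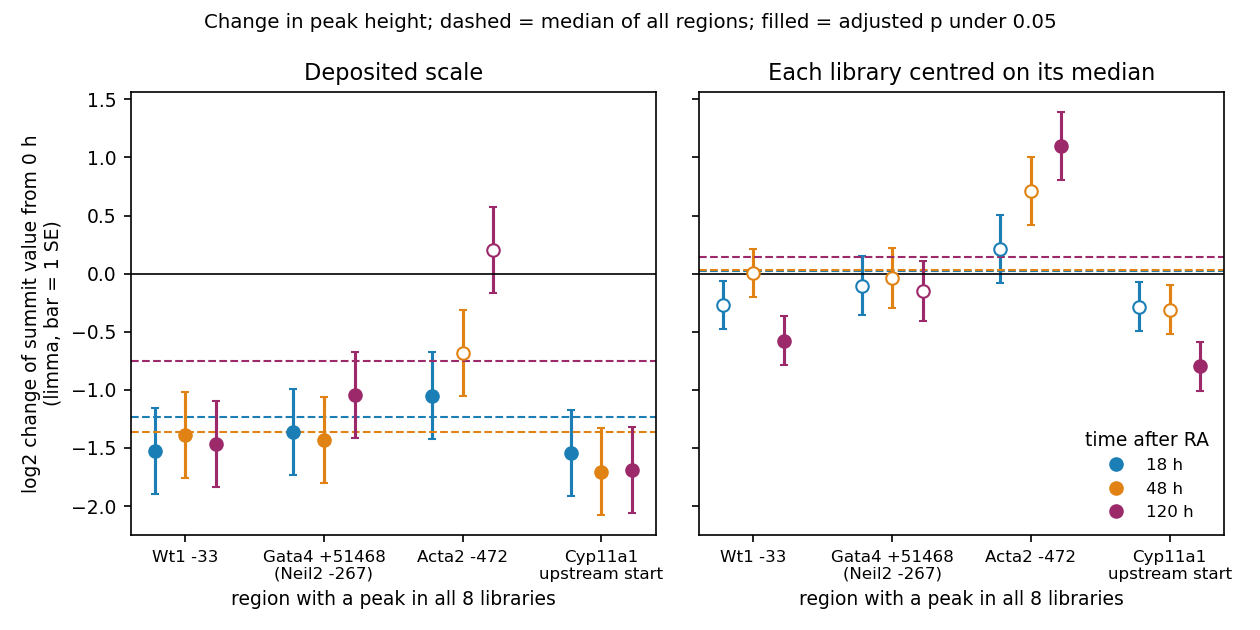
Log2 change of summit value from 0 h (y axis, limma estimate, bars 1 SE) for 3 marker gene regions and the upstream start of Cyp11a1, on the deposited scale (left) and with each library centred on its median (right); dashed lines are the medians over 15536 regions and filled points have an adjusted p under 0.05. On the left Wt1 and the Gata4 region lie near the medians of −1.23 at 18 h and −1.36 at 48 h while Acta2 is at 0.21 at 120 h, and on the right Acta2 at 120 h lies at 1.10 and Wt1 at −0.58.

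Other markers of testis somatic cells also had start peaks at 0 h. A start peak in both libraries was found at 0 h for 7 of 15 further Sertoli genes (46.7%), 2 of 9 Leydig genes (22.2%) and 7 of 8 peritubular genes (87.5%), beside 56.7% of all protein-coding genes. At 18 h it was found for 2, 1 and 2 of them, at 48 h for 3, 1 and 1, and at 120 h for 2, 1 and 2 (13.3%, 11.1% and 25%, beside 45.3% of all genes). By any peak listed for the gene, 13, 7 and 8 of them were counted at 0 h (86.7%, 77.8% and 100%). The share of all protein-coding genes was 73.1%. At 120 h 7, 3 and 5 of them were (46.7%, 33.3% and 62.5%, beside 61.1%). The differences between these short lists were not tested. Among cells outside the tubule the counts at 0 h and 120 h were 3 and 1 of 8 endothelial genes and 2 and 0 of 8 macrophage genes, and among genes of other organs 1 and 0 of 10. No library had any peak for Cst9, a Sertoli cell cystatin, Hsd3b1, a Leydig steroid enzyme, Adgre1, a macrophage receptor, Alb, the liver albumin, or Gcg, the pancreatic glucagon. Among all 21900 protein-coding genes, 5419 had no peak in any library. Over the 10 marker genes the median number of peaks per gene was 3.5 (0 h) and 1.08 later, over the 10 germ cell genes 3 and 2.75, over the 10 genes of other organs 1.25 and 0.667, and over all protein-coding genes 2 and 1.17. Peaks at somatic genes and the number of peaks in a library fell together after 0 h, and how much somatic cells in the sort contributed was not tested.

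**Figure D5:**
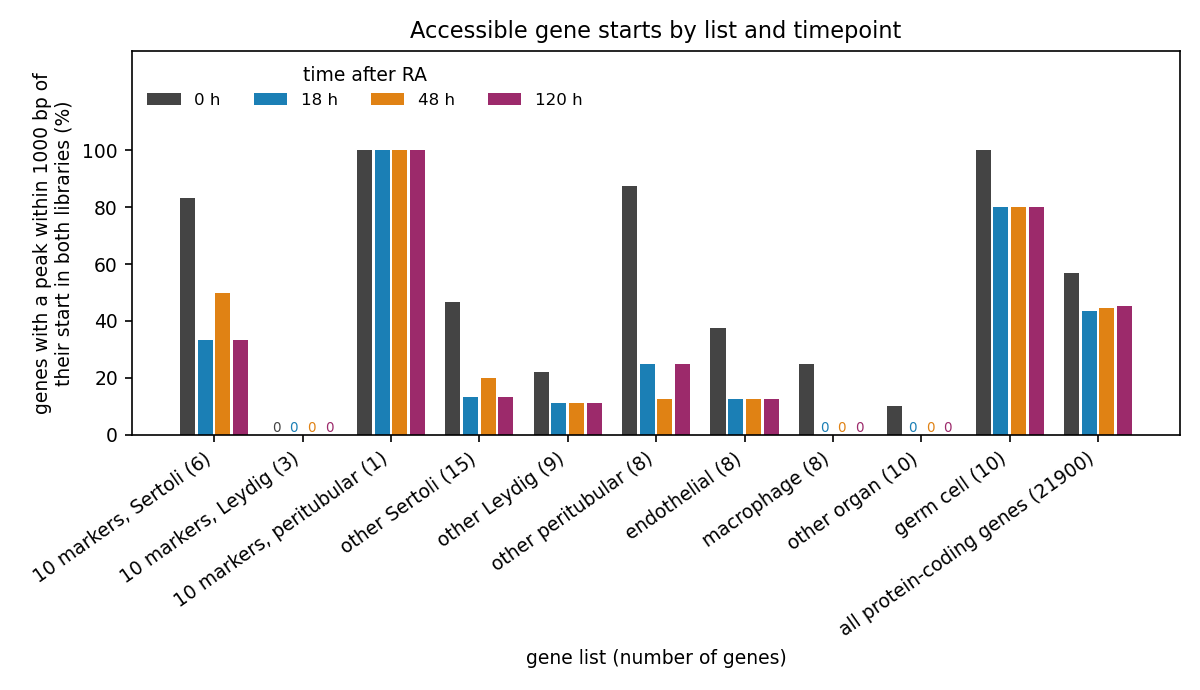
Percentage of genes with a peak within 1000 bp of their start in both libraries of a timepoint (y axis), for the 10 marker genes by cell type, other marker lists and all protein-coding genes (x axis, number of genes in brackets), coloured by time after RA. Germ cell genes stay at 80% after RA, Leydig marker genes are at 0 throughout, and the 6 Sertoli marker genes go from 83.3% at 0 h to 33.3% at 120 h.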

How the data were processed

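ATAC-seq was measured in 8 libraries of sorted mouse germ cells. The authors aligned reads to mm10 with BWA 0.7.12, removed duplicates, reduced all libraries to equal tag numbers and called peaks per library with MACS2 2.1.0; versions are from the submitters' processing notes. The deposited table gives, for each peak, the signal (tag coverage) at its summit, its mean signal and its assigned genes. Tracks and merged region lists were not used here. Peaks were merged at an overlap of at least 1 bp. The deposited signal was compared as log2 summit value with limma 3.58.1 in R 4.3.3 (4 groups, no block, Benjamini-Hochberg adjustment over 15536 regions, threshold 0.05). Missing heights were not imputed except where stated. Peak numbers were compared with exact permutation tests in scipy 1.17.1. Scripts were tested on simulated data. The marker genes and lists were chosen with earlier results of these data known. Named regions were those nearest a start within 1000 bp, those with a peak in all libraries, the 5 highest counted at 0 h only, and any counted later and not at 0 h, and from other lists germ cell genes and genes without a peak. Promoters and genome windows are from RefSeq (GRCm38.p6). Read numbers per peak were not analysed here, so no counting interval is given. The 2 libraries of a timepoint come from single mice. On the deposited scale limma used the same spread for the regions reported (SE 0.37 for each). Those p-values therefore do not measure the spread between mice at a given region. After centring the SE differed between regions (0.21 for Wt1 -33 and 0.29 for Acta2 -472).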

Additional observations from a re-analysis of the deposited data

How the results depend on the processing

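Peak counts moved with the number of peaks kept and with the replicate rule. With summit values of at least 50, 3 marker genes were counted at 18 h and 5 at 120 h, and 4 regions at 18 h. With an equal number of highest peaks per library, 8 regions were counted at 0 h, 2 at 0 h only and 6 later and not at 0 h. The difference between 0 h and later in peaks over the marker genes was then −2.33, and it was reversed for Wt1 (−1), Sox9 (−0.833), Gata4 (−0.167), Cldn11 (−0.5) and Inha (−0.667). The cause was not tested, and the counts in this paragraph are given without those over all genes or regions. Peaks inside the gene or within 1000 bp upstream gave 3 genes at 120 h, 4 regions at 18 h, 4 at 120 h, 0 later and not at 0 h, and a difference of 14.7. Peaks with no other gene start closer gave 4 genes at 120 h, and 3 regions at 18 h, 5 at 120 h and 1 later and not at 0 h. A peak in either replicate gave 14, 18 and 19 regions at 18, 48 and 120 h and 5 later and not at 0 h.

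With each library left out in turn, 7 to 8 genes were counted at 0 h, 5 to 6 (18 h), 6 to 8 (48 h) and 8 to 8 (120 h). Regions ranged from 27 to 33 at 0 h, 7 to 11 (18 h, most without 18 h replicate 1), 7 to 16 (48 h, most without 48 h replicate 1), 10 to 18 (120 h, most without 120 h replicate 2), 11 to 21 at 0 h only, and 2 to 7 later and not at 0 h (7 without 48 h replicate 1, 5 without 120 h replicate 2). The difference in peaks was 19.5 to 21.1. Regions lower than at 0 h numbered 2 to 3 (18 h), 2 to 3 (48 h) and 0 to 2 (120 h, 1 without 0 h replicate 1 and 0 without 0 h replicate 2), and 0 to 1 were higher at 120 h than at 48 h (Acta2, 1.27 without 120 h replicate 2, adjusted p = 0.00489). Centring without each library in turn, chosen after seeing the data, left 0 lower regions at 18 and 48 h, 0 to 1 lower at 120 h (1 without 0 h replicate 1) and 0 to 1 higher at 120 h (0 without 0 h replicate 2). Values that then turned for some libraries left out were those of Acta2 at 18 h (0.34, 0.083 and 0.73 without 0 h replicate 1, 0 h replicate 2 and 18 h replicate 2, −0.31 without 18 h replicate 1, otherwise 0.21), Wt1 at 48 h (0.22 and 0.051 without 0 h replicate 2 and 48 h replicate 1, −0.21 and −0.042 without 0 h replicate 1 and 48 h replicate 2, otherwise 0.0045) and the Gata4 region (0.072, 0.14 and 0.024 at the later timepoints without 0 h replicate 1, 0.28 at 48 h without 48 h replicate 2 and 0.11 at 120 h without 120 h replicate 1). None of these values passed.

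The 3, 2 and 2 regions lower than at 0 h (18, 48 and 120 h) became 0, 0 and 1 with median centring and 0, 0 and 0 with quantile normalization, and both found 1 higher at 120 h. With missing heights at the lowest summit value, 21, 23 and 18 were lower and 2 higher at 120 h (the Sox9 and Cyp11a1 regions counted at 120 h alone, with 5 and 6 of 8 values imputed), and against 48 h 3 were higher. In that fit regions chosen by where peaks were missing differ by construction. Shares of all regions called are not given for this fit, its centred form or quantile normalization. Their counts are therefore not read as particular to the marker genes. The same fit centred gave 0 lower at 18 and 48 h and 3 lower at 120 h, 2 higher at 18 h, 1 at 48 h and 3 at 120 h, and between 48 and 120 h 2 lower and 2 higher; there the imputed values shift with the centring. Acta2 turned to 0.21 at 18 h with centring (also imputed) and 0.018 with quantile normalization, and Wt1 to 0.0045 at 48 h with centring (also imputed).

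The replicate numbers do not pair the libraries: separate mice share only a number, and the correlations of replicate differences between timepoints were −0.224 to 0.248. The replicate block gave the same 3, 2 and 2 lower regions and changed no call. Centring with the block, chosen after seeing the data, gave 0, 0 and 1 lower and 1 higher at 120 h, with Acta2 at 0.21 at 18 h and Wt1 at 0.0045 at 48 h. Regions without a peak in some library have no height there, which limits the height comparison to 3 marker gene regions.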
